A study of Mus musculus with 21 samples.

Results

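DNA repair genes are described here in Mist1-positive cells sorted from the mouse small intestine. The set holds 42 genes chosen by name for their known roles in homologous recombination, the Fanconi pathway, end joining, excision and mismatch repair, and break sensing with its checkpoint kinases. Of these, 40 had a probe set that carries a single gene symbol, out of 18194 genes so covered on the array, and each gene was read through its brightest probe set over 20 arrays. A filter on low signal, which asks for a signal above the median of the array in at least 2 of the 20 arrays, was passed by 39 members and by 11854 genes in all. Bard1, the partner of Brca1, was above the median on 0 arrays, with levels of 4.31 to 6.91 on the log2(signal + 16) scale, and was not tested. Rbbp8 and Xrcc2 were not analysed here.

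The arrays profiled cells that carried TdTomato, a red fluorescent protein which marks Mist1-positive cells per the labels, split by flow cytometry into CD24lo and CD24hi fractions. Mist1, encoded by Bhlha15, controls transcription in secretory cells, and CD24 is found on the surface of Paneth cells among others. Each fraction was profiled in 5 conditions with 2 arrays each: untreated, Lgr5-ablated (titled DT), irradiated with 10 Gy, doxorubicin (written doxorubucin in the labels, a drug that poisons topoisomerase and breaks DNA) and NICD, an abbreviation in common use for the intracellular domain of Notch that the labels leave unexplained. All 10 groups therefore share the reporter and the CD24 sort, and no group received DT without ablation or a vehicle. Age, strain, sex, time after treatment, drug dose and the driver of the reporter, the ablation or NICD are not stated in the labels. They do not say either whether both arrays of a group came from separate mice, so p-values measure the spread between these arrays, which may be technical.

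The median signal of a sorted array lay between 101 and 158, and precision is limited by the number of arrays. Bhlha15 was above the array median in every group, at means of 7.99 to 11.8. All 7 pan-epithelial markers were above the array median in every group, whereas 0 of 5 fibroblast and 0 of 4 endothelial markers were. Of immune markers, 2 of 6 myeloid and 1 to 3 of 5 B and plasma cell markers were above it in each group, and 0 to 7 of 8 T cell markers. Replicate 2 of CD24hi NICD stood apart from the other 19 arrays in its control probes, with a ratio of 3' to 5' actin signal of 1.03 against 1.30 to 1.58. Its mean signal for the cre spike-in was 61414, against 19851 to 43018, and counts and ranges that rest on it are also given without it.

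Cells mend each kind of DNA lesion by a separate route. Small base lesions and single-strand breaks go to base excision repair, bulky adducts to nucleotide excision repair, mispaired bases to mismatch repair, crosslinks to the Fanconi pathway, and double-strand breaks either to end joining, which works throughout the cell cycle, or to homologous recombination, which copies the sister chromatid and so works in S and G2 phase. Intestinal crypts are renewed by rapidly dividing cells and are known for their sensitivity to radiation and to drugs that break DNA, and many recombination genes are transcribed mainly in dividing cells under E2F factors.

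Promoter windows are shown for the members whose group means spread most widely, because these carry the differences described below. RefSeq windows of GRCm38.p6, from 250 bases before to 50 after a transcription start, were found for 34 of the 40 members measured, 3 of them with 2 windows. The letters searched on both strands were the E2F sites TTTCCCGC, TTTGGCGC, TTTGCCGC and TTTCGCGC, the CCAAT box, the cell cycle homology region (CHR) TTTGAA, and the p53 decamer by its consensus. Matches are in capitals, and positions count the start as 1 with the base before it as -1. A match describes the letters of a window and not a bound site.

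Ercc2 (chr7:19381767-19382066, plus strand), Ung (chr5:114130185-114130484, plus strand), Chek1 (chr9:36726609-36726908, minus strand), Parp1 (chr1:180568641-180568940, plus strand) and Rad51c (chr11:87404457-87404756 and chr11:87404905-87405204, minus strand) had the widest range among members that passed the test across the 10 groups, although Parp1 ranked 7 without the CD24hi NICD array that stood apart. Brca2 (chr5:150522371-150522670, plus strand) and Ercc5 (chr1:44147494-44147793, plus strand) were added after their values were seen, as a gene that fell and the gene that rose after irradiation. The windows follow.
Ercc2: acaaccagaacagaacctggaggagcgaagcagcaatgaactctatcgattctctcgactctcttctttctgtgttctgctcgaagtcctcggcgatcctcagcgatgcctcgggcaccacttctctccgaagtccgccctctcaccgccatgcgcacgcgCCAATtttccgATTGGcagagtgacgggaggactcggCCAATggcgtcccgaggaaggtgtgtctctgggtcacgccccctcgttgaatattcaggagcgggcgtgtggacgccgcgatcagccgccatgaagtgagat
Ung: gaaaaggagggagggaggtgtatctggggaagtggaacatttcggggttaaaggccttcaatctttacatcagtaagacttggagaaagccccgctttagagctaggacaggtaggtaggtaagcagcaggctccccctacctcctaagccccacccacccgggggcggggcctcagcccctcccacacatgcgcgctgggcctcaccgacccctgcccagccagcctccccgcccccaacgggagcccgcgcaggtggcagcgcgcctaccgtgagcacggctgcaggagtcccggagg
Chek1: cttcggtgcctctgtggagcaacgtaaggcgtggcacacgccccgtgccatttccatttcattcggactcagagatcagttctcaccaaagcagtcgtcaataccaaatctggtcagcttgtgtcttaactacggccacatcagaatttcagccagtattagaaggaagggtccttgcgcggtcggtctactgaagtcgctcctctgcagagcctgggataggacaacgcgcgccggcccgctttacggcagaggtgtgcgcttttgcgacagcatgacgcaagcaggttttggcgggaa
Parp1: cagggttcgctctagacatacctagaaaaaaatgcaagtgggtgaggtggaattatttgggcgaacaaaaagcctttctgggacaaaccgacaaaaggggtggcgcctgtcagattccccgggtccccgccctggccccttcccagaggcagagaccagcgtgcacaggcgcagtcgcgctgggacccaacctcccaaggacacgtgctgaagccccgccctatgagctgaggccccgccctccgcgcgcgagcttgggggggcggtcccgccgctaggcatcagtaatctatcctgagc
Rad51c, first window: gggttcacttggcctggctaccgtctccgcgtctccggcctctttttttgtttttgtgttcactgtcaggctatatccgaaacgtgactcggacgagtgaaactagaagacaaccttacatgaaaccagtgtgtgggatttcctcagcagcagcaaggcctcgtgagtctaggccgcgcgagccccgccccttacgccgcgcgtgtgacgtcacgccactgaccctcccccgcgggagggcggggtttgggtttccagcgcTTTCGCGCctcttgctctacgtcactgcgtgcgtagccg
Rad51c, second window: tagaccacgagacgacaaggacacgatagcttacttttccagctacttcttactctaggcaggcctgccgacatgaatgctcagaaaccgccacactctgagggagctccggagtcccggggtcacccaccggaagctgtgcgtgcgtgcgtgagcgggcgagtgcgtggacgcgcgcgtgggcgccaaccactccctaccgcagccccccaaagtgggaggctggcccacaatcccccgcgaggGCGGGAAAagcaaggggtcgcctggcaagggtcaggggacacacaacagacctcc
Brca2: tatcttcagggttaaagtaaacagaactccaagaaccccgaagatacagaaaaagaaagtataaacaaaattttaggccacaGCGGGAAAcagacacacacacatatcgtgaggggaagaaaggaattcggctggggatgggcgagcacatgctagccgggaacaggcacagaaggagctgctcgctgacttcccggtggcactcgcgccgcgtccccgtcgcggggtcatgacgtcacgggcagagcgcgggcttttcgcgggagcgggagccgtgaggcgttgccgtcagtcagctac
Ercc5: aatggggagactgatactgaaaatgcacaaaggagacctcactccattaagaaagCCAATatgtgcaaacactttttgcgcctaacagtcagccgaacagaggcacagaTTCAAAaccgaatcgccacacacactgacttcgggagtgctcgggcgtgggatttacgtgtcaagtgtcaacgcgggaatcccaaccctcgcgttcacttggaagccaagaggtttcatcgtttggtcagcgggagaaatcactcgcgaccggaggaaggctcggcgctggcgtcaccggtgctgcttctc

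Ercc2 held the CCAAT letters at -89, -78 and -52, the middle copy on the opposite strand. Rad51c held an E2F match in both windows, at 12 to 19 after one start and across the other start at -5 to 3, and Brca2 held one at -168 to -161. Ercc5 held CCAAT at -195 and the CHR letters at -141, while the windows of Ung, Chek1 and Parp1 held none of these letters. The Chek1 window ends in GCGGGAA, the E2F letters GCGGGAAA without their last base, so a match across its end would be missed. No matches overlapped in the windows shown. Over all members measured, 8 of 37 windows (21.6%) held an E2F match, from Rad51c, Brca2, Bard1, Chek2, Fancg, Msh6 and Xrcc6, against 2.26% of all 32851 windows. The CCAAT letters were in 51.4% of member windows and 37.4% of all windows, the CHR letters in 5.41% and 17.9%, and the p53 decamer in 5.41% and 8.36%. For comparison, E2F letters were in 33.3% of the windows of S phase genes, CHR letters in 70.6% of those of mitosis genes and the p53 decamer in 34.6% of those of p53 target genes.

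Levels of the 39 members ran from just below the array medians to well above them. The highest mean over the 20 arrays was 11.8 for Trp53bp1, a scaffold protein at double-strand breaks, and the lowest 6.65 for Fancd2, the protein that the Fanconi ligase marks with ubiquitin. The array medians lay at 6.87 to 7.45 on this scale, and Fancd2 exceeded the median on 3 arrays only, Rad51c on 9 and Ercc2 on 12. Differences of such dim genes depend on the pseudocount of 16, which draws them toward 0: that of Ercc2 after doxorubicin in CD24lo cells, described below, was -2.26 with a pseudocount of 1, -1.79 with 16 and -1.12 with 64. A probe set level was not compared between genes beyond this, since brightness depends on the probes. The probe sets of 5 members, Xrcc4, Nhej1, Ercc1, Ddb2 and Chek1, are of a kind that may not be specific to 1 transcript.

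Across the 10 groups, 22 of 39 members differed (limma's moderated F test, adjusted p below 0.05), close to the 56.1% of all genes tested that did, and 25 differed without the array that stood apart. The range of group means was 2.79 for Ercc2, a helicase of the TFIIH complex, and 2.70 for Ung, the glycosylase that removes uracil from DNA (adjusted p = 1.91e-06). Without that array Ercc2 spanned 2.42 and Ung still 2.70, and Parp1 went from 1.94 to 1.61. With all arrays the range was narrowest for Fancm, a Fanconi translocase, at 0.46 and Xrcc4 at 0.48. Lig3 followed at 0.55 and Xpc, the sensor of distorted helices, at 0.58. Without the array that stood apart Fancm stayed at 0.46 and Lig3 at 0.55, while Xpa went from 1.32 to 0.56. Xrcc4 then spanned 0.69 and Xpc 0.93. The lowest group mean fell in CD24lo doxorubicin cells for 18 of the 39 members and in CD24lo Lgr5-ablated cells for 8. It fell in CD24hi irradiated cells for 5 and in CD24hi doxorubicin cells for 0. No such count was made over all genes. Centred on each gene's mean, the median of all genes tested was also lowest on the CD24lo doxorubicin arrays, at -0.07 and -0.11.

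**Figure D1:**
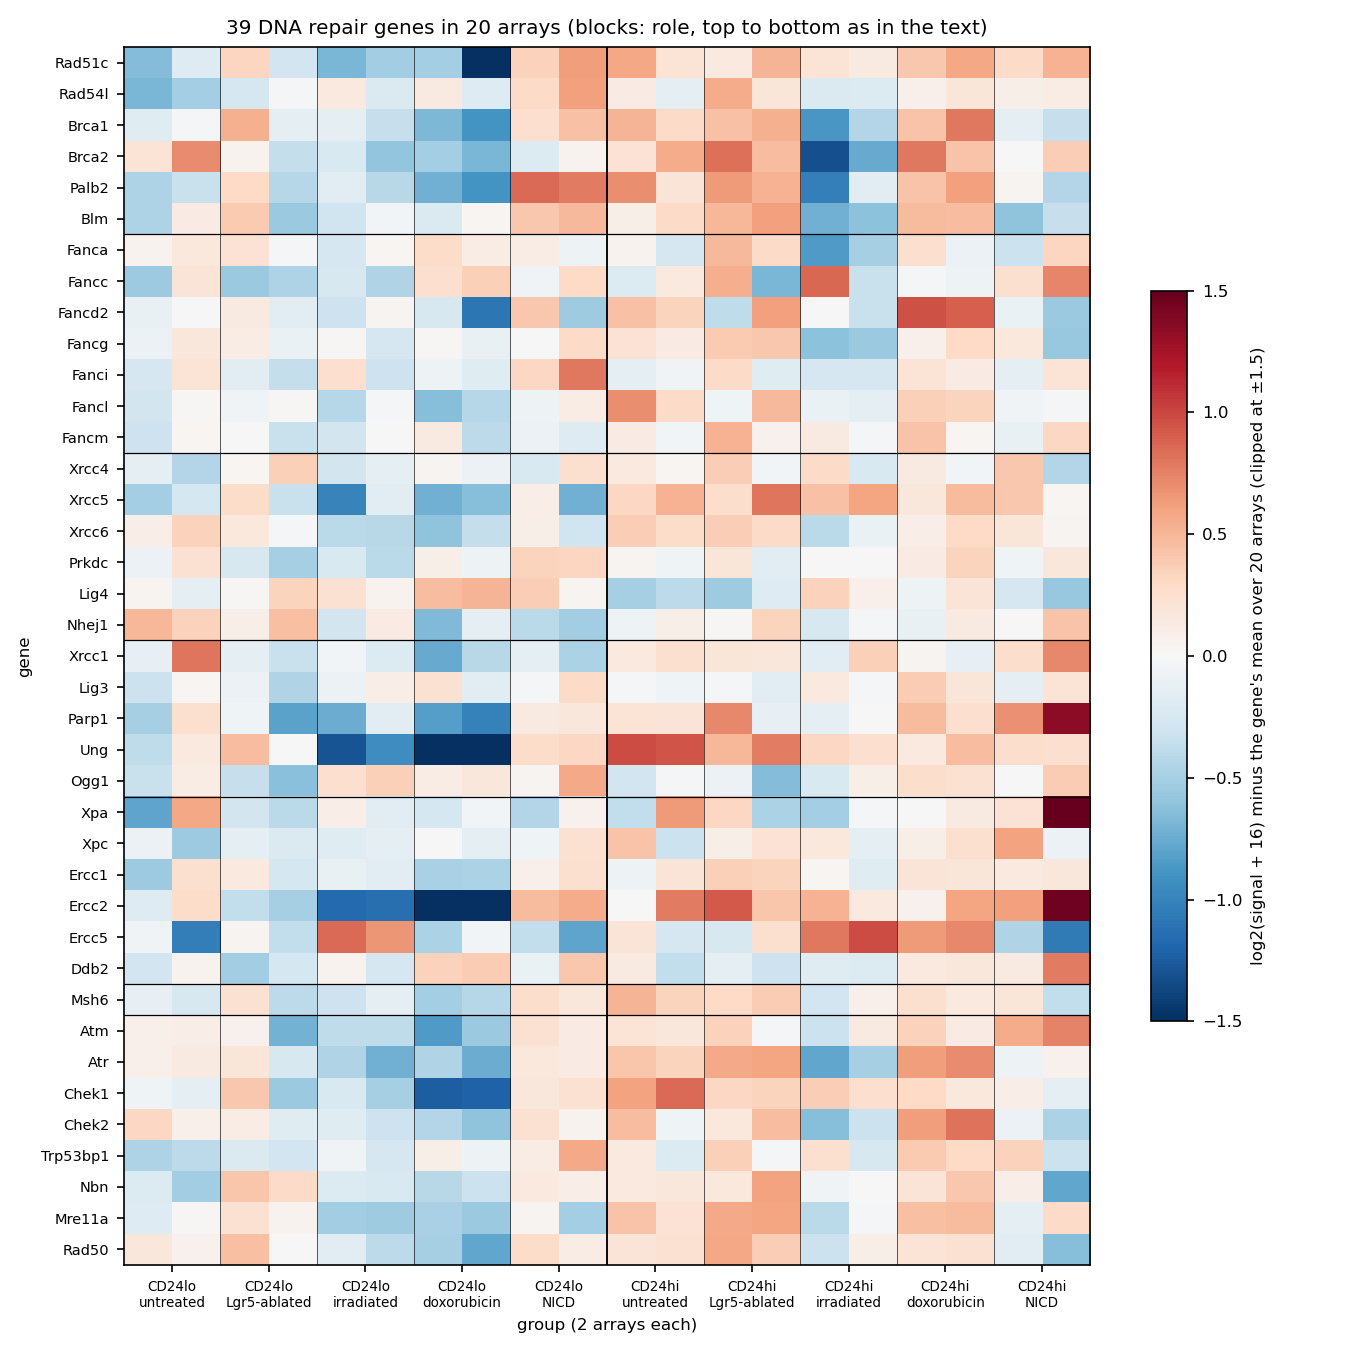
Each row is a DNA repair gene and each column an array, coloured by log2(signal + 16) minus the gene's mean over the 20 arrays (blue lower, red higher, clipped at ±1.5), with genes in blocks by role. The CD24lo doxorubicin columns are blue for most genes, and those of CD24hi irradiated cells are blue for most recombination and Fanconi genes, the upper 2 blocks, though not for Rad51c, Fancc or Fancm.

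In untreated mice the CD24hi fraction had more Ung and Chek1 than the CD24lo fraction. Ung read 11.20 and 11.18 in CD24hi cells against 9.86 and 10.38 in CD24lo cells, a difference of 1.07 ± 0.22 (adjusted p = 0.00356). Here and below ± gives the SE from limma, with a spread shared by all 10 groups of 2 arrays each. Averages over conditions or fractions rest on all the arrays averaged. Chek1, the kinase that Atr activates at stalled replication forks, read 9.95 and 10.20 against 9.27 and 9.20, a difference of 0.84 ± 0.24 (adjusted p = 0.0276). Neither gene overlapped between the fractions, as held for 17 members on the higher side and for 29.4% of all genes. On the lower side 2 members and 24.5% of all genes did not overlap. A difference of 1 is a 2-fold change of signal + 16, and adjusted p-values come from limma with the Benjamini-Hochberg adjustment over all genes tested.

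These 2 higher members compare with 7.51% of all genes tested, and 0 members were lower against 6.87%. At an unadjusted p below 0.05 there were 9, against 27.7% of all genes. The members' median difference was 0.27, and that of all genes 0.05. Among the members that did not pass, Palb2, which joins Brca1 to Brca2, had the largest difference at 0.84 ± 0.30 (adjusted p = 0.0696), Nhej1 lay lowest at -0.42 and Ddb2 closest to 0 at 0.00. Brca1 was at 0.51, Xpc at 0.37, Atr at 0.27, Atm at 0.09 and Chek2 at 0.01. The count was 0 without replicate 1 of untreated CD24lo and 1 without any other single array of the comparison, and Chek1 lost its call without any of the 4.

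Averaged over the 5 conditions, which share no arrays with one another, more members separated the fractions. Of the 39, 15 passed against 46.6% of all genes, 14 of them higher in CD24hi cells against 27.4% and 1 lower against 19.2%. Base excision and single-strand break repair gave 3 of 5 genes. Ung was higher by 0.98 ± 0.10 (adjusted p = 5.87e-07), Parp1, the enzyme that senses nicked DNA and builds poly(ADP-ribose), by 0.72 ± 0.14 and Xrcc1, the scaffold of nick repair, by 0.36 ± 0.14. All 3 other kept probe sets of Parp1 were higher too, by 0.57, 0.76 and 0.90. CD24hi cells lay above CD24lo cells on both arrays in 4 of 5 conditions for Ung and in 3 for Parp1, and Ung lay below in the fifth, NICD, where the values were 10.49 and 10.49 against 10.51 and 10.54.

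Among nucleotide excision genes, Ercc2 was higher by 1.11 ± 0.16 (adjusted p = 2.83e-05) and Ercc1, a subunit of the nuclease that cuts 5' of a lesion, by 0.27 ± 0.10. Of the break sensors and checkpoint kinases, 4 of 8 were higher, namely Chek1 by 0.63 ± 0.11, Atm, the kinase that answers double-strand breaks, by 0.46 ± 0.10, Atr, the kinase that answers single-stranded DNA, by 0.39 ± 0.08 and Mre11a, the nuclease of the complex with Rad50 and Nbn, by 0.49 ± 0.10. The second kept probe set of Atm gave 0.53 and that of Atr 0.74, both with adjusted p below the threshold. Atm, Mre11a and Ercc2 did not overlap between the fractions in 4 of 5 conditions. In untreated cells alone 29.4% of all genes did not overlap on the higher side. No share of all genes was computed for such counts of conditions, here or for Ung, Parp1 and Lig4.

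End joining was split. Both subunits of the Ku ring, which holds broken ends, were higher in CD24hi cells, Xrcc5 by 0.80 ± 0.14 (adjusted p = 0.000258) and Xrcc6 by 0.28 ± 0.08. Lig4, the ligase that seals those ends, was the 1 member that was lower, at -0.38 ± 0.10 (adjusted p = 0.00398), and both CD24hi arrays lay below both CD24lo arrays in 4 of 5 conditions. Rad51c, a gene of homologous recombination, was higher by 0.72 ± 0.18, Fancl, the Fanconi ubiquitin ligase, by 0.36 ± 0.10 and Msh6, a subunit of the mismatch sensor, by 0.30 ± 0.10. Brca1 at 0.24, Xpc at 0.26, Chek2 at 0.19 and Ddb2 at 0.03 did not pass. Of those short of the threshold, Fancd2 was highest at 0.37 and Fanca lowest at -0.12.

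In this average genes outside the set differed between the fractions too. Of all genes tested 46.6% did, 27.4% higher and 19.2% lower in CD24hi cells. Of 56 further repair genes tested, 24 were higher and 2 lower, led by Rad51b, another recombination gene, at 1.20 ± 0.16, and by Rev1 at 0.77 and Rev3l at 0.67, polymerases that copy past lesions. Of 25 S phase genes 11 were higher and 0 lower, with Mcm7, a helicase subunit, at 0.60 ± 0.15, and of 21 mitosis genes 0 were higher and 3 lower. The summed signal of 9 stem cell markers was 34191 to 37817 in untreated CD24hi cells and 14596 to 16505 in untreated CD24lo cells, and that of 7 enterocyte markers 11226 to 16210 and 45044 to 54315. Sums were 1246 to 1877 and 254 to 392 for 6 tuft cell markers, and 98247 to 130156 and 70194 to 82262 for 8 Paneth cell markers. Averaged over conditions, 6 of 6 tuft, 7 of 8 Paneth and 9 of 9 stem cell markers were higher in CD24hi cells. Their part in the result was not tested. In bulk samples fewer cells of a type and less RNA per cell cannot be told apart. Without the CD24hi NICD array that stood apart 18 members passed, and the calls of Xrcc1 and Ercc1 were lost without most single arrays (13 and 14 of 20).

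**Figure D2:**
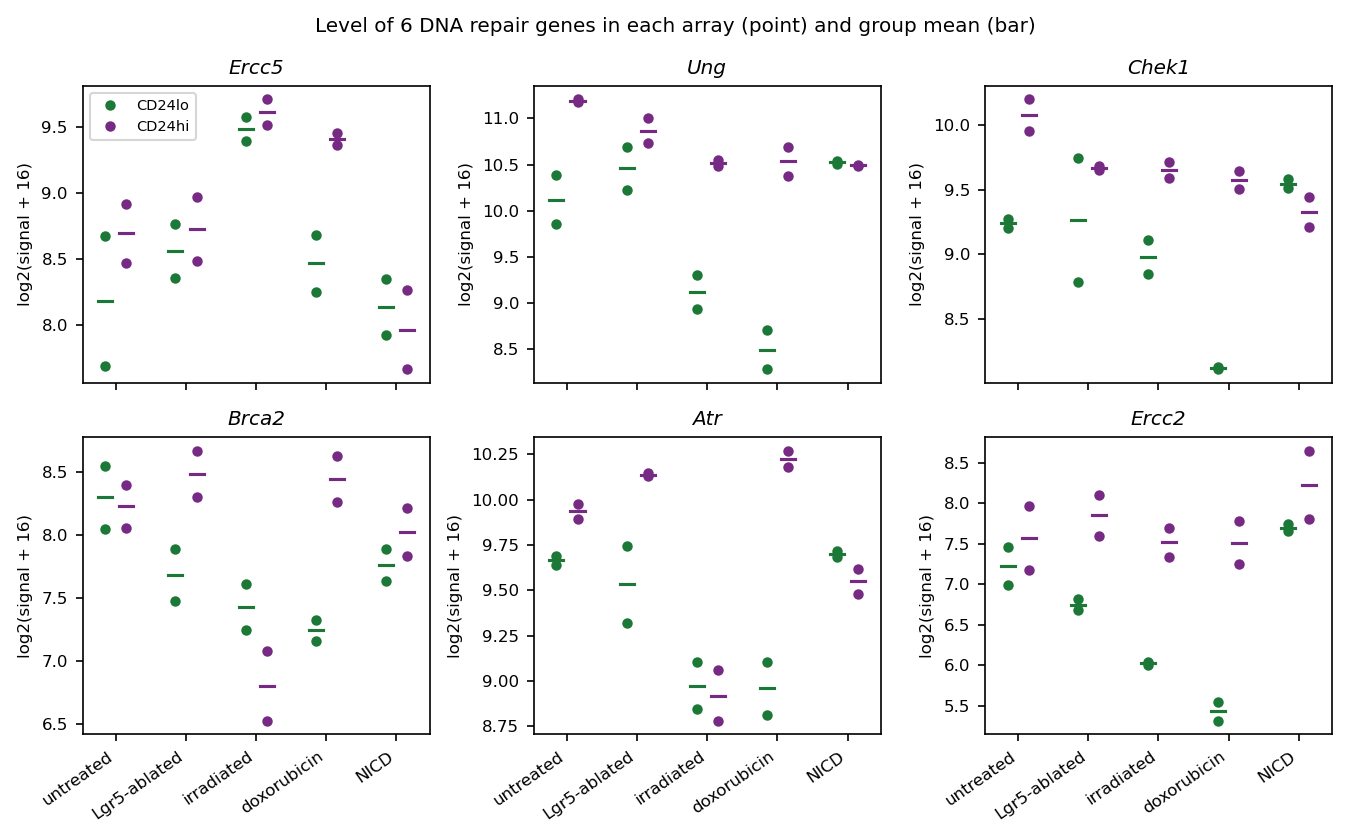
The log2(signal + 16) level of 6 genes is plotted on each array as a point, with bars at the group means, CD24lo in green and CD24hi in purple, across the 5 conditions. Ung, Chek1 and Ercc2 are lowest in CD24lo doxorubicin cells, Brca2 is lowest in CD24hi irradiated cells, Atr is low after irradiation in both fractions and Ercc5 is high there.

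After irradiation 25 of the 39 differences were below 0 in CD24lo cells and 30 in CD24hi cells, most of them short of the threshold. Over all 11854 genes tested, 5976 differences were below 0 in CD24lo cells and 5904 in CD24hi cells. Ercc5, the nuclease that cuts 3' of a lesion, read 9.57 and 9.39 in irradiated CD24lo cells against 8.67 and 7.69 in untreated ones, a rise of 1.30 ± 0.32 (adjusted p = 0.0289). Ung read 8.94 and 9.30 against 9.86 and 10.38, a difference of -0.998 ± 0.22 (adjusted p = 0.0176). Neither gene overlapped between the groups. Of all genes, 24.8% did not overlap on the higher side and 26.9% on the lower, and of the members 5 and 13.

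In CD24lo cells these were the 2 members past the threshold, against 4.02% of all genes, 1 higher against 1.58% and 1 lower against 2.45%. At an unadjusted p below 0.05 there were 7, against 21% of all genes. Among the rest, Ercc2 was at -1.20 ± 0.36 (adjusted p = 0.0717), Atr at -0.69 ± 0.19 (adjusted p = 0.0502) and Rad54l, a motor that remodels DNA during strand exchange, highest at 0.56. Atm at -0.47, Chek2 at -0.44, Chek1 at -0.26, Brca1 at -0.13, Xpc at 0.16 and Ddb2 at 0.02 did not pass, and Fancm lay closest to 0. The count was 0 without replicate 2 of untreated CD24lo, 0 without replicate 1 of irradiated CD24lo and 1 without its replicate 2.

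In CD24hi cells 3 members passed, against 4.44% of all genes; all 3 fell, against 3.33%, and 0 rose, against 1.11%. Brca1 and Brca2 among them serve homologous recombination. Brca2, a core protein of that route, read 6.52 and 7.08 in irradiated cells against 8.05 and 8.40 in untreated ones, a difference of -1.43 ± 0.29 (adjusted p = 0.00732). Brca1, which directs break ends into recombination, read 8.11 and 8.54 against 9.49 and 9.27, a difference of -1.06 ± 0.24 (adjusted p = 0.0139). Atr read 8.78 and 9.06 against 9.98 and 9.89, a difference of -1.02 ± 0.19 (adjusted p = 0.00384). None of the 3 overlapped between the groups.

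By role, 2 of 6 recombination and 0 of 7 Fanconi genes passed in CD24hi cells, and 6 and 5 of them had differences below 0. The median over the 6 recombination genes was -0.95 and over the 7 Fanconi genes -0.56, against 0.00 for all genes tested. It was -0.37 for 8 break sensing and checkpoint genes, 7 of them below 0. For 6 end joining genes it was -0.02, for 6 nucleotide excision genes -0.07 and for 5 base excision and single-strand break repair genes -0.09. Msh6, the 1 mismatch gene, stood at -0.53. Of the single genes that did not pass, Palb2 stood at -1.04 ± 0.30 (adjusted p = 0.0587) and Ercc5 highest at 0.91 ± 0.32 (adjusted p = 0.135). Chek2 was at -0.69, Chek1 at -0.42, Atm at -0.28, Ddb2 at -0.08 and Xpc at -0.04. Irradiated and untreated arrays did not overlap for 22 members on the lower side, against 24.8% of all genes, and for 2 on the higher side, against 23.2%, and 15 members had an unadjusted p below 0.05, against 15.9% of all genes. The second kept probe set of Brca1, which is dimmer, went the other way at 0.63 (adjusted p = 0.481), and that of Atr gave -0.30 (adjusted p = 0.799). A mean over probe sets ended the calls of both genes. Without replicate 1 of irradiated CD24hi the count was 0, Brca1 lost its call without replicate 1 of untreated CD24hi as well, and Brca2 without its replicate 2.

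With both fractions averaged, 8 members passed, 1 higher against 5.09% of all genes and 7 lower against 8.5%. Ercc5 rose by 1.11 ± 0.22 (adjusted p = 0.00348). Brca2 changed by -1.15 ± 0.21 (adjusted p = 0.00145), Atr by -0.85 ± 0.13 (adjusted p = 0.000447), Ung by -0.84 ± 0.16 (adjusted p = 0.00192) and Xrcc6 by -0.61 ± 0.13 (adjusted p = 0.0053). Brca1 at -0.60, Chek2, the kinase downstream of Atm, at -0.57 and Mre11a at -0.48 passed closer to the threshold, with adjusted p of 0.0267, 0.0298 and 0.0495. Ercc2 at -0.63, Lig4 at 0.42, Atm at -0.37, Chek1 at -0.34, Xpc at 0.06 and Ddb2 at -0.03 did not pass.

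The calls of Brca2, Ung and Ercc5 in this average were kept without any single array and under every other setting tried, while a mean over probe sets ended those of Brca1, Xrcc6, Atr and Mre11a. Mre11a lost its call under 13 of 19 alternatives, among them 7 of the 8 arrays left out. Brca1 and Chek2 each lost theirs without 5 of those 8 arrays. The second kept probe sets gave 0.48 for Brca1, -0.20 for Xrcc6 and 0.04 for Atr. Without replicate 1 of untreated CD24hi, without either replicate of irradiated CD24lo or without replicate 1 of irradiated CD24hi, 5 members passed. The response did not differ between the fractions at the threshold for any member (limma, 0 of 39 against 0.00844% of all genes, and at an unadjusted p below 0.05 4 of 39 against 3.61%), with Palb2 at -1.15 ± 0.42 and Ercc2 at 1.14 ± 0.51 as the extremes.

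**Figure D3:**
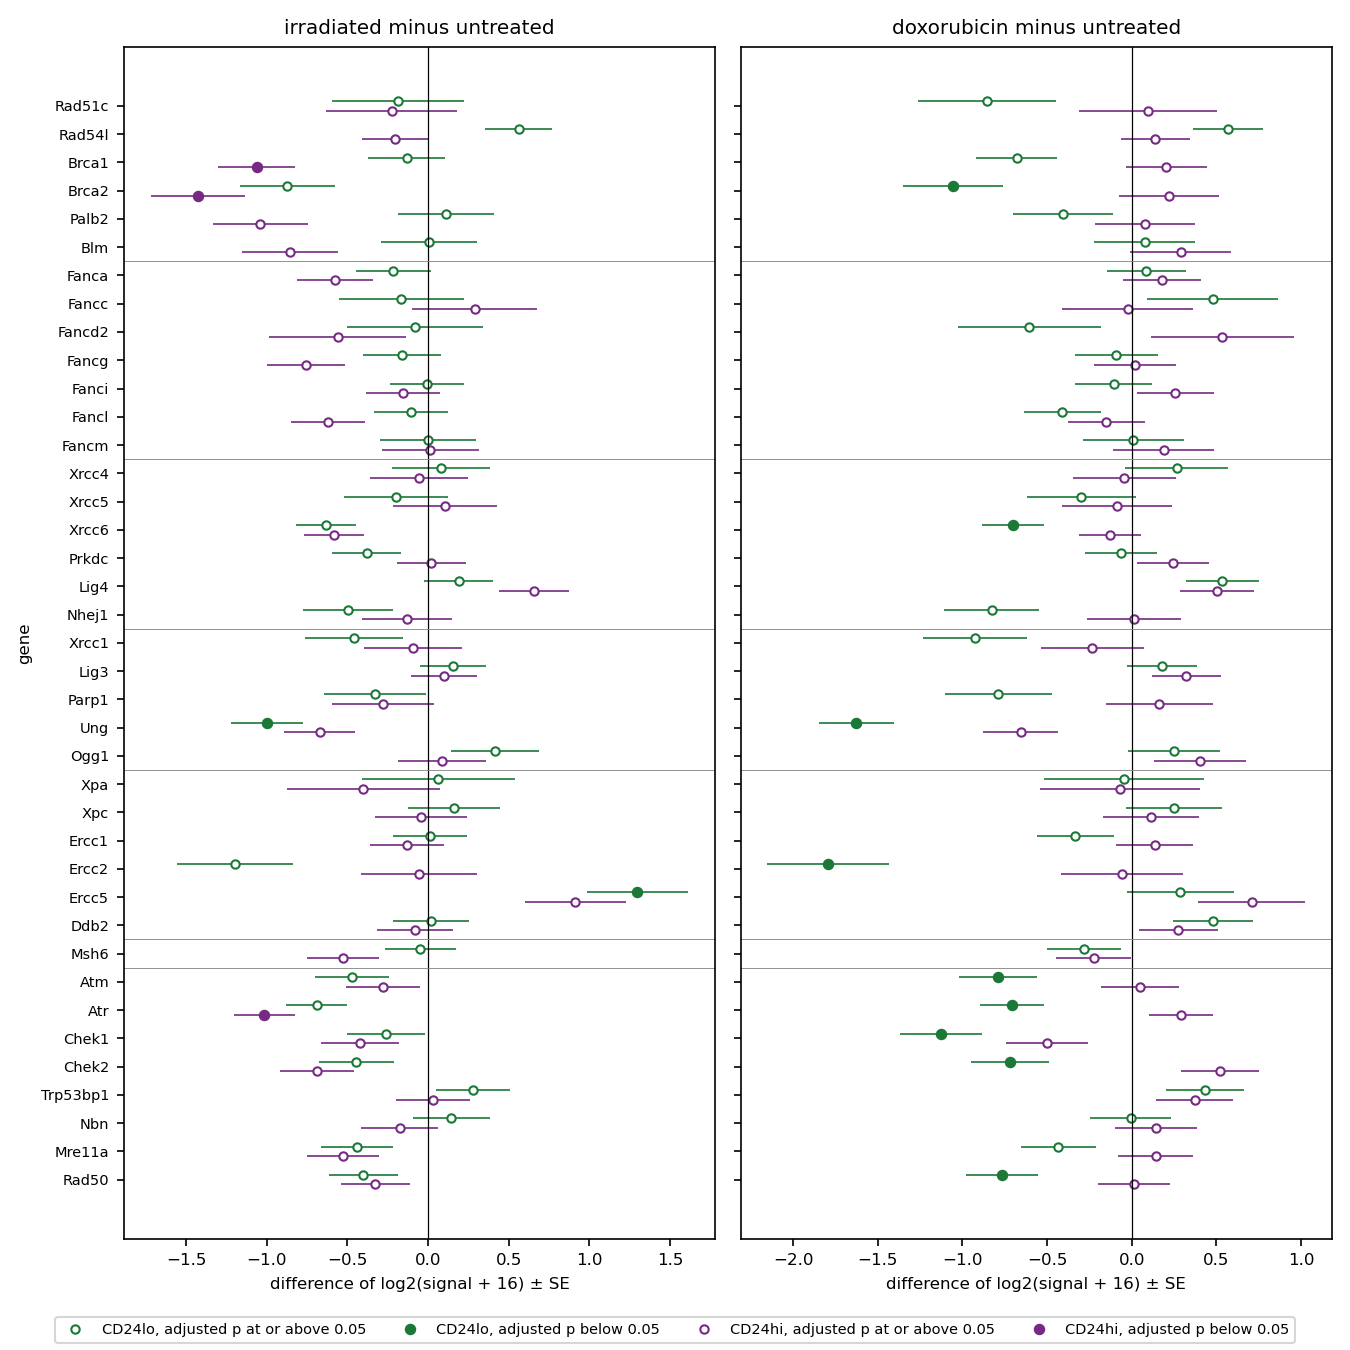
Differences of log2(signal + 16) from untreated cells are plotted for 39 DNA repair genes with SE bars, after irradiation on the left and doxorubicin on the right, CD24lo in green and CD24hi in purple. Filled points passed the threshold: 2 CD24lo and 3 CD24hi genes after irradiation, and 9 CD24lo and 0 CD24hi genes after doxorubicin.

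Genes of the p53 response and of the cell cycle moved much further than most repair genes after irradiation. Of 23 p53 targets, 12 rose in CD24lo and 10 in CD24hi cells and 0 fell, with medians of 1.27 and 1.08. Phlda3, an inhibitor of Akt signalling, rose by 4.75 ± 0.44 and 4.10 ± 0.44, Eda2r, a death receptor, by 4.59 and 3.91, and Cdkn1a, the inhibitor that halts the cell cycle, by 1.43 ± 0.29 and 2.09 ± 0.29. Mdm2, the ligase that restrains p53, rose by 1.26 ± 0.30 in CD24lo cells (adjusted p = 0.0244) and stood at 0.88 ± 0.30 in CD24hi cells (adjusted p = 0.123). Xpc and Ddb2 lay near 0 in both fractions, as given above.

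Of 25 S phase genes, 6 fell in CD24lo cells (median -0.82) and 17 in CD24hi cells (median -1.42), among them Mcm5 at -1.32 and -1.83. Pcna, the sliding clamp, did not pass, at -0.01 and -0.61. Of 21 mitosis genes, 18 and 19 fell, with Mki67, a marker of dividing cells, at -1.68 ± 0.31 and -2.06 ± 0.31. The 56 further repair genes gave 1 rise and 5 falls in CD24lo cells and 1 rise and 11 falls in CD24hi cells. Polk, a polymerase that copies past lesions, rose by 1.40 ± 0.20 in CD24lo cells, and Clspn, which couples Atr to Chek1, changed by -1.25 ± 0.32 and -1.98 ± 0.32. The members' own medians were -0.13 and -0.23. The summed signal of stem cell markers was 2976 to 4253 in irradiated CD24lo cells and 13330 to 13421 in irradiated CD24hi cells, below the untreated ranges given above. The part of cell cycle and stem cell genes in the members' values was not tested.

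**Figure D4:**
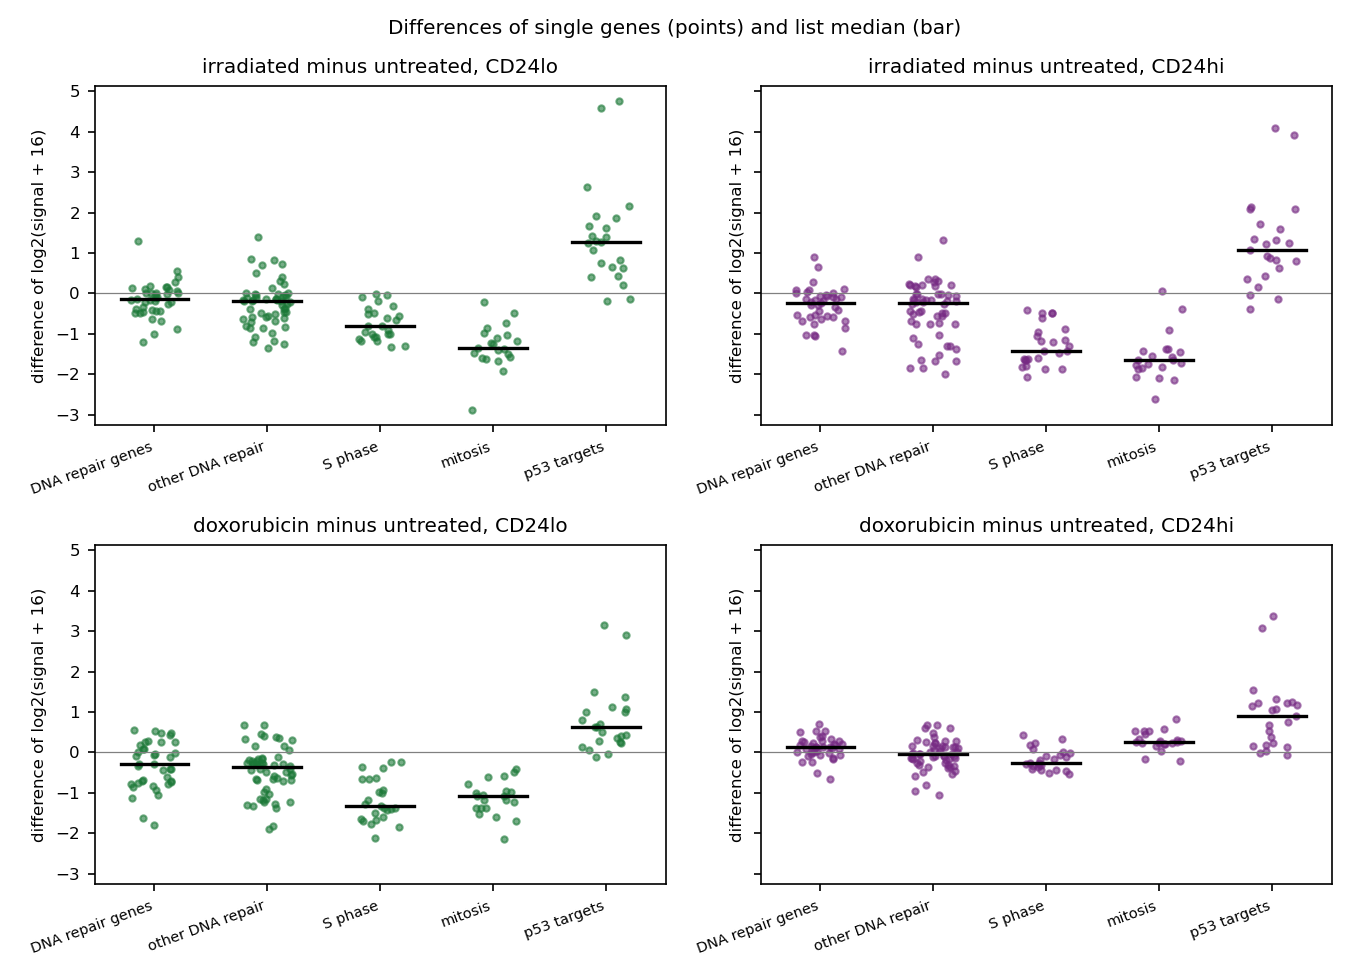
Each point is the difference of 1 gene from untreated cells on the log2(signal + 16) scale and each bar a list median, for irradiation above and doxorubicin below, CD24lo on the left and CD24hi on the right. The DNA repair genes centre between -0.30 and 0.14 in the 4 panels, while the median of p53 target genes lies above 0 in each panel and those of S phase and mitosis genes lie at -0.82 or below in all panels but that of CD24hi doxorubicin cells.

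After doxorubicin 9 of the 39 members fell in the CD24lo fraction, against 9.27% of all genes, and 0 rose, against 5.47%. Ung read 8.70 and 8.28 in doxorubicin cells against 9.86 and 10.38 in untreated ones, a difference of -1.63 ± 0.22 (adjusted p = 0.000536). Ercc2 read 5.55 and 5.32 against 6.99 and 7.46, a difference of -1.79 ± 0.36 (adjusted p = 0.00494). Chek1 read 8.11 and 8.13 against 9.27 and 9.20, a difference of -1.12 ± 0.24 (adjusted p = 0.00724). The treated arrays of all 3 genes lay below the untreated ones by more than either pair differed, and Ercc2 was there below the median of every array.

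The other falls were spread over recombination, end joining and break sensing. Brca2 read 7.32 and 7.16 against 8.05 and 8.55 (-1.06 ± 0.29, adjusted p = 0.0251), and Xrcc6 read 9.57 and 9.81 against 10.27 and 10.52 (-0.70 ± 0.18, adjusted p = 0.0191). Atm read 9.74 and 10.03 against 10.67 and 10.69 (-0.79 ± 0.23, adjusted p = 0.0297), and Atr 9.11 and 8.81 against 9.64 and 9.69 (-0.71 ± 0.19, adjusted p = 0.0214). Chek2 read 8.38 and 8.22 against 9.14 and 8.90 (-0.72 ± 0.23, adjusted p = 0.047). Rad50, the tether of broken ends in the Mre11a complex, read 9.18 and 8.89 against 9.85 and 9.75 (-0.76 ± 0.21, adjusted p = 0.0256). With Chek1 this gave 5 of the 8 break sensing and checkpoint genes, and none of the 6 genes overlapped between treated and untreated arrays. On the lower side 19 members and 35.1% of all genes did not overlap.

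Of those that did not pass, Xrcc1 was lowest at -0.93 ± 0.30 (adjusted p = 0.0505) and Rad54l highest at 0.57 ± 0.21 (adjusted p = 0.0712). Brca1 stood at -0.68 (adjusted p = 0.0649), Ddb2 at 0.48 and Xpc at 0.25, and Nbn lay closest to 0 at -0.01. The 7 Fanconi genes had 0 calls and a median of -0.09. The members' median was -0.30 and that of all genes -0.06. Other kept probe sets gave -0.10, -0.76 and -1.12 (adjusted p = 0.0407) for Chek1, -0.44 for Atm, -0.27 for Xrcc6 and 0.11 for Atr. A mean over probe sets ended the calls of Chek1, Atm, Xrcc6 and Atr. Ung kept its call without any single array, whereas Atm, Atr, Chek2 and Rad50 each lost theirs whichever of the 4 arrays was left out. The count was 2 without replicate 2 of untreated CD24lo and 3 without either replicate of CD24lo doxorubicin.

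In CD24hi cells 0 members passed after doxorubicin, against 1.2% of all genes (0.801% higher and 0.396% lower), with 4 at an unadjusted p below 0.05 in limma, against 11.8%. Ung was lowest at -0.66 ± 0.22 (adjusted p = 0.214) and Ercc5 highest at 0.71 ± 0.32 (adjusted p = 0.386). Ercc5 read 9.36 and 9.45 against 8.92 and 8.47, without overlap. Chek2 stood at 0.52, Atr at 0.29, Ddb2 at 0.28, Brca1 at 0.20, Xpc at 0.11, Atm at 0.05 and Chek1 at -0.50, and Nhej1 lay closest to 0. Treated and untreated arrays did not overlap for 15 members on the higher side, against 25.4% of all genes, and for 4 on the lower side, against 25.9%.

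Averaged over fractions, 5 members passed, 1 higher against 7.04% of all genes and 4 lower against 9.32%. Ung changed by -1.14 ± 0.16 (adjusted p = 0.000341), Chek1 by -0.81 ± 0.17 (adjusted p = 0.00539), Ercc2 by -0.93 ± 0.25 (adjusted p = 0.0214) and Xrcc6 by -0.41 ± 0.13 (adjusted p = 0.0394). Lig4 rose by 0.52 ± 0.15 (adjusted p = 0.0293), at 9.33 and 9.37 against 8.91 and 8.72 in CD24lo cells and 8.79 and 9.06 against 8.37 and 8.47 in CD24hi cells, without overlap in either fraction. Of all genes, 26.2% in CD24lo and 25.4% in CD24hi cells did not overlap on the higher side. Xrcc1 at -0.58, Ercc5 at 0.50, Ddb2 at 0.38, Atm at -0.37, Brca1 at -0.24, Atr at -0.21, Xpc at 0.18 and Chek2 at -0.10 did not pass. A mean over probe sets ended the calls of Xrcc6 and Chek1. Between 2 and 3 members passed without 7 of the 8 single arrays, replicate 1 of untreated CD24lo being the exception at 7, and Ung passed each time. Lig4 lost its call without those 7 arrays (highest adjusted p = 0.121), and Ercc2 lost it with a pseudocount of 64 (adjusted p = 0.0502).

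The difference between the fractions' responses to doxorubicin passed for 0 of 39 members (limma), against 0.0337% of all genes, with 11 at an unadjusted p below 0.05, against 10.6%. The largest were Ercc2 at 1.74 ± 0.51 (adjusted p = 0.229), Brca2 at 1.28 ± 0.42 (adjusted p = 0.278) and Chek2 at 1.24 ± 0.33 (adjusted p = 0.194), and Fancc was lowest at -0.50. That 9 members passed in one fraction and 0 in the other is therefore not shown to be a difference between them. Of the S phase genes 17 of 25 fell in CD24lo cells (median -1.32) and 0 in CD24hi cells (median -0.26), and of the mitosis genes 16 of 21 fell in CD24lo cells (median -1.07) and 0 in CD24hi cells (median 0.27). Mki67 changed by -0.98 ± 0.31 in CD24lo cells (adjusted p = 0.0427) and stood at 0.30 in CD24hi cells, with Pcna at -0.25 and 0.00. Of 23 p53 targets 8 rose in each fraction, Phlda3 by 2.90 and 3.37 and Eda2r by 3.16 and 3.09. Cdkn1a at 0.24 and 1.07 and Mdm2 at 0.63 and 0.75 did not pass. Further repair genes gave 12 falls of 56 in CD24lo cells, led by Atrip, the partner of Atr, at -1.90 ± 0.38, and 0 in CD24hi cells.

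The CD24lo doxorubicin arrays also differed in markers of cell types. Their summed signal of 8 T cell markers was 3447 to 3582 against 342 to 1005 in untreated CD24lo cells, with 7 and 0 of the markers above the array median, and in CD24hi cells it was 1788 to 2013 against 294 to 753. Their sum of enterocyte markers was 95053 to 108372 and that of stem cell markers 3371 to 3469. The part of these cells in the members' values was not tested.

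**Figure D5:**
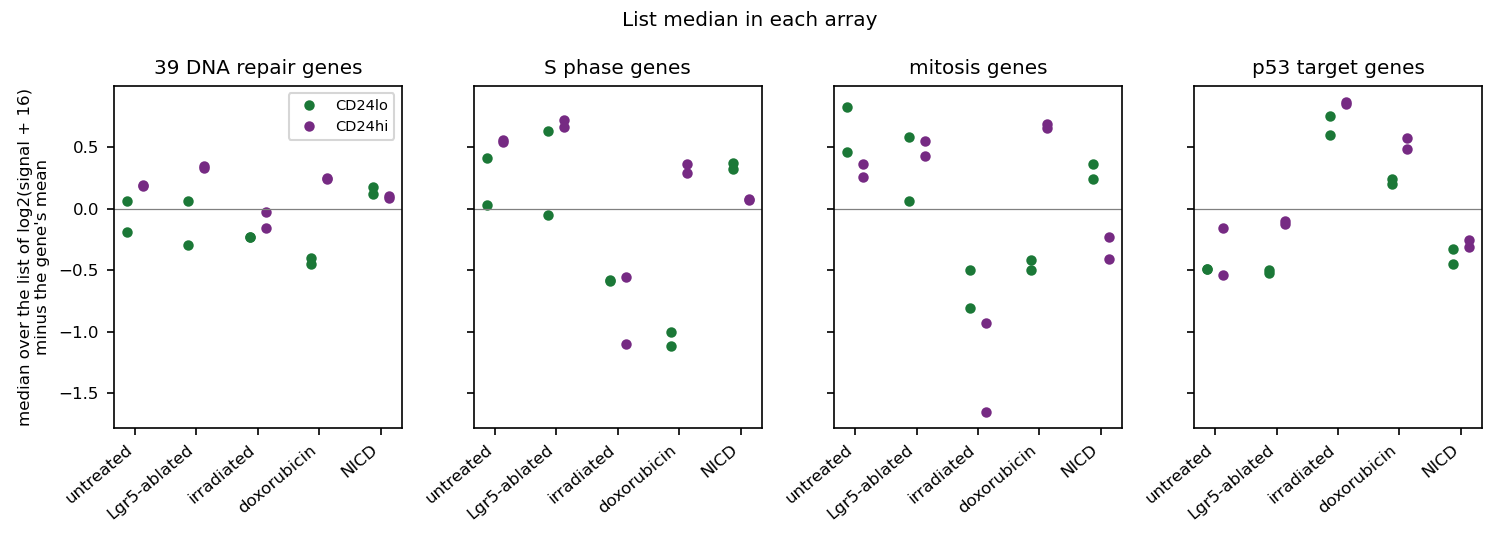
The median over a gene list of log2(signal + 16) minus each gene's mean is plotted for each of the 20 arrays, CD24lo in green and CD24hi in purple, for the 39 DNA repair genes and for S phase, mitosis and p53 target genes. The DNA repair median is lowest on the CD24lo doxorubicin arrays, at -0.45 and -0.40, and highest on the CD24hi Lgr5-ablated arrays, at 0.35 and 0.33.

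Doxorubicin and irradiation were also set against each other within a fraction. Against irradiated CD24hi cells, 6 members were higher in doxorubicin cells, against 3.71% of all genes, and 0 were lower, against 0.844%. Brca2 read 8.63 and 8.26 against 6.52 and 7.08, a difference of 1.64 ± 0.29 (adjusted p = 0.00298). Atr read 10.18 and 10.27 against 8.78 and 9.06, a difference of 1.31 ± 0.19 (adjusted p = 0.000565). Brca1 read 9.41 and 9.77 against 8.11 and 8.54, a difference of 1.27 ± 0.24 (adjusted p = 0.00449). The gap between the treatments was wider than that within either pair for all 3 genes.

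Chek2 read 9.46 and 9.64 against 8.19 and 8.50 (1.21 ± 0.23, adjusted p = 0.00496). Blm, the helicase that dissolves recombination intermediates, read 8.20 and 8.18 against 6.99 and 7.10 (1.14 ± 0.30, adjusted p = 0.0363), and Palb2 read 8.90 and 9.08 against 7.44 and 8.31 (1.12 ± 0.30, adjusted p = 0.0397). This made 4 of the 6 recombination genes tested, with a median of 1.13. Fancd2 at 1.10 ± 0.42 had the largest difference among those that did not pass and Fancc the lowest at -0.31, while Ddb2 stood at 0.36, Atm at 0.33, Xpc at 0.16 and Chek1 at -0.08, and Ercc2 lay closest to 0. The arrays did not overlap for 26 members on the higher side, against 29.1% of all genes, and for 1 on the lower side, against 28.3%.

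In the same comparison 15 of 25 S phase genes and 19 of 21 mitosis genes were higher, with medians of 1.09 and 1.94 and Mki67 at 2.36 ± 0.31. The second kept probe set of Brca1 gave -0.50 and that of Atr 0.23, and a mean over probe sets ended both calls. The count was 1 without replicate 1 of irradiated CD24hi, 3 without replicate 1 and 2 without replicate 2 of CD24hi doxorubicin. Blm lost its call without any of the 4 arrays and Palb2 without 3 of them, while Atr kept its call without each. In CD24lo cells 0 members differed between the treatments (limma, against 3.27% of all genes, and at an unadjusted p below 0.05 4 against 20.4%). Ercc5 was lowest at -1.01 ± 0.32 (adjusted p = 0.0826), followed by Chek1 at -0.87 ± 0.24 (adjusted p = 0.0581), and Fancc was highest at 0.64. Brca1 at -0.55, Ddb2 at 0.46, Atm at -0.32, Chek2 at -0.27, Xpc at 0.09 and Atr at -0.01 did not pass either. The treatments share the untreated arrays but not these ones, and time and drug dose are not given, so the comparison is of these groups as sampled.

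Ablation of Lgr5-expressing cells moved no member past the threshold. The count was 0 of 39 in CD24lo cells, 0 in CD24hi cells, 0 in their average and 0 for their difference, and 2, 0, 2 and 1 members had an unadjusted p below 0.05 (limma), against 7.44%, 9.57%, 12% and 4.46% of all genes. Of all genes, 0.236% passed in CD24lo cells (0.0928% higher, 0.143% lower), 0.852% in CD24hi cells (0.574% and 0.278%), 1.59% in the average (0.903% and 0.692%) and 0.0169% for the difference. In CD24lo cells differences ran from -0.61 ± 0.29 for Brca2 to 0.71 ± 0.24 for Nbn, the signalling subunit of the Mre11a complex, and in CD24hi cells from -0.41 ± 0.24 for Chek1 to 0.48 ± 0.23 for Fanca. Nbn read 9.92 and 9.79 against 9.30 and 8.99 in CD24lo cells, without overlap, as did 14.6% of all genes on the higher side. Atm was at -0.42 and -0.03, Atr at -0.13 and 0.20, Chek2 at -0.23 and 0.11, Brca1 at 0.30 and 0.08, Xpc at 0.15 and 0.10 and Ddb2 at -0.27 and -0.11, in CD24lo and CD24hi cells. The replicates of ablated CD24lo cells lay far apart for several members, Chek1 at 9.75 and 8.78 and Atm at 10.65 and 9.88 among them.

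With NICD the calls of single members lay in CD24lo cells. In CD24lo cells 3 members rose, against 6.7% of all genes, and 1 fell, against 7.72%. Palb2 read 9.33 and 9.26 against 8.01 and 8.14, a rise of 1.22 ± 0.30 (adjusted p = 0.0185). Rad54l read 9.77 and 10.09 against 8.79 and 8.97, a rise of 1.05 ± 0.21 (adjusted p = 0.00982). Trp53bp1 read 11.87 and 12.32 against 11.30 and 11.36 (0.77 ± 0.23, adjusted p = 0.0364), and Nhej1, which aligns ends for Lig4, read 7.21 and 7.09 against 8.11 and 7.96 (-0.89 ± 0.28, adjusted p = 0.0434). None of the 4 overlapped between the groups. Of all genes, 32.9% did not overlap on the higher side and 29.6% on the lower, and of the members 15 and 4.

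The next largest were Rad51c at 0.91 ± 0.41 and Xrcc1 at -0.65 ± 0.30, neither past the threshold, and Brca1 was at 0.45, Xpc at 0.41, Chek1 at 0.30, Ddb2 at 0.27, Atm at 0.08, Atr at 0.03 and Chek2 at -0.06. Fancm lay closest to 0. Other kept probe sets gave 1.44 (adjusted p = 0.0462) and 0.39 for Rad54l and 0.04 to 0.64 for Trp53bp1, whose call a mean over probe sets ended. The count was 0 without replicate 1 of untreated CD24lo, 1 without its replicate 2 and 0 without replicate 2 of CD24lo NICD. The summed T cell marker signal was 4494 to 5816 in CD24lo NICD cells, and its part in these values was not tested.

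In CD24hi NICD cells 0 members passed (limma, against 6.56% of all genes, 4.7% higher and 1.86% lower, and at an unadjusted p below 0.05 11 of 39 against 24.1%). Chek1 was lowest at -0.75 ± 0.24 (adjusted p = 0.0727) and Xpa, the scaffold of nucleotide excision, highest at 0.84 ± 0.47. The array that stood apart carried much of the latter, with Xpa at 10.31 against 8.79 on the other array and Parp1, which read 11.39 against 10.74. Brca1 stood at -0.64, Ddb2 at 0.57, Chek2 at -0.48, Atm at 0.47, Atr at -0.39 and Xpc at 0.21. The summed signal of tuft cell markers was 10707 to 12021 in CD24hi NICD cells, against 1246 to 1877 in untreated ones, and that of 9 enteroendocrine markers 50547 to 73808 against 10897 to 11157, and their part in these values was not tested. No member passed without replicate 2, the array that stood apart. Without replicate 1 of CD24hi NICD some members passed, and more of all genes did as well.

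Palb2 was the 1 member whose response to NICD differed between the fractions, at -1.86 ± 0.42 (adjusted p = 0.0381, against 2.65% of all genes), from 8.51 and 8.04 in CD24hi NICD cells against 9.16 and 8.66 in untreated ones, where it had risen in CD24lo cells. Blm at -1.27 ± 0.42 (adjusted p = 0.0823), Brca1 at -1.09 ± 0.34 (adjusted p = 0.0735) and Chek1 at -1.05 ± 0.34 (adjusted p = 0.0789) came next, and Nhej1 was highest at 1.09. Palb2 lost its call without either untreated array of either fraction, without replicate 2 of CD24lo NICD or without replicate 2 of CD24hi NICD. Without replicate 1 of CD24hi NICD more members passed, and more of all genes did as well. In the average of the fractions Rad54l rose by 0.58 ± 0.15 (adjusted p = 0.0156), the 1 member past the threshold against 14.6% of all genes (8.71% higher). It lost that call with a mean over probe sets and without replicate 1 of untreated CD24lo, replicate 2 of untreated CD24hi or replicate 2 of CD24lo NICD, and 2 members passed without replicate 1 of CD24lo NICD or either array of CD24hi NICD.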

How the data were processed

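RNA from 20 samples of sorted cells and 1 of whole intestine was purified with an Ambion kit, and 0.8 ng was amplified and biotin-labelled with the GeneChip Pico kit, per the labels' protocols. The deposited values are linear signal intensity of 45101 probe sets, which the authors computed in MAS5, per the submitters' processing notes (version not given in the sources used here). The mean without the lowest and highest 2% was 500.002 to 500.003 on every array. Detection calls were not used here. Gene symbols came from the platform annotation (34958 probe sets with 1 symbol, 932 with several, 9211 with none). Signals were analysed as log2(signal + 16), without further scaling, in limma 3.58.1 (R 4.3.3), with 10 group means, 10 residual degrees of freedom, variances moderated with a trend, two-sided tests and adjusted p below 0.05, in 20 comparisons and 1 F test. The code was tested on simulated data. Members and lists were chosen with earlier results of these data known. All members past the threshold are named in each comparison, with Atm, Atr, Chek1, Chek2, Brca1, Xpc, Ddb2 and the extremes; of other lists, up to 4 of the most changed genes that passed and Cdkn1a, Mdm2, Mki67 and Pcna. Whole intestine entered no test.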

Additional observations from a re-analysis of the deposited data

Results flagged for a closer look

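Palb2 differed in its response to NICD between the fractions by -1.86 on the log2(signal + 16) scale (CD24hi minus CD24lo, limma's test of the difference itself, adjusted p = 0.0381). It rose in 2 of 2 CD24lo NICD arrays over both untreated arrays, and lay below both untreated arrays in 2 of 2 CD24hi NICD arrays. The call was lost under 9 of 19 alternatives, and 6 of these 9 left out an array.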

How the results depend on the processing

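Of 56 calls of single members, 16 were lost under none of the alternatives run (pseudocount 1 or 64, centring on the 75th percentile, quantile normalization, a stricter filter or none, mean of probe sets, no trend, robust moderation, replicate block, each array left out, only the groups compared), and 0 reversed. Fitting only the groups compared gave 0 members for irradiation in CD24lo cells (main 2), 1 in CD24hi cells (3), 8 for the doxorubicin average (5), 2 for NICD in CD24lo cells (4), 0 for the NICD average (1), 0 for the NICD difference (1) and 2 for doxorubicin against irradiation in CD24lo cells (0). Centring on the 75th percentile gave 4 for irradiation in CD24lo cells, a mean of probe sets gave 3 for the doxorubicin average, and no filter or no trend gave 0 for the NICD difference. Leaving out 1 array gave 0 to 1 members for the fractions untreated (main 2), 12 to 18 for their average (15), 0 to 2 and 0 to 4 for irradiation in CD24lo and CD24hi cells (2 and 3), 5 to 9 for its average (8), 2 to 7 for doxorubicin in CD24lo cells (9) and 2 to 7 for its average (5), 0 to 3 for NICD in CD24lo cells (4), 0 to 6 in CD24hi cells (0), 0 to 2 for its average (1) and 0 to 9 for its difference (1), 1 to 5 for doxorubicin against irradiation in CD24hi cells (6) and 19 to 26 for the F test (22). The 8 other comparisons stayed at 0 throughout these. Where a group kept 1 array, its spread was taken from the other groups. The number of all genes past the threshold also moved with the array left out. Residuals of arrays sharing a replicate number correlated at -0.41 to 0.38 across genes (median -0.02, 21 of 45 pairs of groups above 0). The fractions of a condition were not taken apart from the other pairs, so whether they were paired by mouse was not tested. With the replicate block 7 members passed for the irradiation average (main 8, Mre11a losing its call), 10 for doxorubicin in CD24lo cells (9) and 15 for the average of the fractions (15), and it changed no other count of members. Genes near the array median, such as Ercc2 and Rad51c, are limited by signal over background.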

Other observations

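Whole intestine, measured on 1 array without a replicate and with a median signal of 62.7, read below every sorted array for 32 of the 39 members (82.1%), and above every sorted array for 0. Of all genes tested, 39.4% lay below and 18.6% above. Of the members, named after their values were seen, Rad54l and Xpa lay farthest below the mean of the sorted arrays, at 4.25 against 9.48 and 4.12 against 8.57, and Ddb2 was the highest relative to it, at 10.7 against 10.5.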
